A study of Mus musculus with 12 samples.

Results

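The genes described here encode enzymes that assemble triglyceride (triacylglycerol), the storage form of fat. They are Gpam, Agpat2, Lpin1, Dgat1 and Dgat2, and their members on the array were chosen by name, as the probe sets whose gene symbol in the array annotation was one of these 5 alone. Of the 22690 probe sets, 7 carried such a symbol, and they stood for 4 of the 5 genes, among 12394 genes measured. Gpam (Entrez gene 14732), Lpin1 (14245) and Dgat2 (67800) had 2 probe sets each and Dgat1 (13350) had 1. Agpat2 was not analysed here. All 7 probe sets passed the filter on low signal and were tested.

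The study measured RNA of quadriceps muscle from C57Bl/6J mice on 12 oligonucleotide arrays in 4 groups of 3. The combination group was trained on a treadmill and dosed with 5 mg/kg of GW1516 per day, a synthetic compound that activates the nuclear receptor PPARδ. The GW group was sedentary and received the same dose, the exercise group was trained and received vehicle, and the vehicle group was sedentary and received vehicle, in all cases for 4 weeks. RNA of 3 mice was pooled for each array, so a group stands for 9 mice and the spread behind each p-value is that among pools. Whole muscle was measured, so more cells of a type and more RNA per cell cannot be told apart.

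Triglyceride is built on glycerol 3-phosphate. Gpam, an acyltransferase of the outer mitochondrial membrane, attaches the first fatty acid, and enzymes of the AGPAT family, Agpat2 among them, attach the next. Lpin1 encodes lipin 1, a phosphatase that removes the phosphate to leave diacylglycerol and that also enters the nucleus as a transcriptional coactivator. Dgat1 and Dgat2, which are unrelated in sequence, attach the last fatty acid. Muscle fibres keep triglyceride in small droplets as fuel for contraction. Fat cells express the same enzymes, and fat lies between muscle fibres, so the signals are given beside that of Adipoq, the adiponectin gene, which is a marker of fat cells.

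PPARδ binds DNA with its partner RXR at a direct repeat of the half-site AGGTCA with 1 base between the copies. The 250 bases before the start sites that RefSeq gives for Gpam (2 starts) and Lpin1 in build GRCm38.p6 are shown because a Gpam probe set was the only one of the 7 whose signal separated all drug-treated arrays from the others, and Lpin1 serves as a member that did not. All are read 5′ to 3′ on the gene's strand, with a match to AGGTCA on either strand in capitals.
Gpam, start 1, chr19:55127239-55127488, minus strand: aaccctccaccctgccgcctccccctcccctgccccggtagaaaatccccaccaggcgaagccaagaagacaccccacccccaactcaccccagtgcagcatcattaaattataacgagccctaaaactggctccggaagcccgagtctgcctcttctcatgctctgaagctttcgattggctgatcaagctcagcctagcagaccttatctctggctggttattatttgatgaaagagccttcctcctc
Gpam, start 2, chr19:55099478-55099727, minus strand: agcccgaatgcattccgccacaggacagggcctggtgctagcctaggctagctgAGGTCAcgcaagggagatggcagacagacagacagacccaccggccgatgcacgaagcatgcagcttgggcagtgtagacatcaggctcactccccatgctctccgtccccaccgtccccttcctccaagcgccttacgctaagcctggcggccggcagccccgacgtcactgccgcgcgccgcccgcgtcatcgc
Lpin1, chr12:16610967-16611216, minus strand: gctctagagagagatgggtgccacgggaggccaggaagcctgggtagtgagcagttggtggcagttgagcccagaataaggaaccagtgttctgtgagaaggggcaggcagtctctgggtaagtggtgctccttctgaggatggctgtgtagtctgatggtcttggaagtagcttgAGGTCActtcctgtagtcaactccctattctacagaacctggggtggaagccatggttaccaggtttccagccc
The half-site AGGTCA occurred once before the second Gpam start, 196 to 191 bases upstream, and once before the Lpin1 start, 74 to 69 bases upstream, both on the gene's strand. It also occurred in 14% of the 32851 RefSeq windows of the same length. The full repeat, 2 copies of AGGTCA with any 1 base between them, and the E-box CACGTG were also searched on both strands and were not found in these windows or in that of Agpat2. The repeat occurred in 0.0335% of all windows and the E-box in 6.02%. Only exact copies within these 250 bases were searched, so the absence of the repeat does not tell whether PPARδ binds at or near these genes. Dgat1 and Dgat2 had no entry in the promoter table.

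Values are signal intensities as deposited, on a linear scale. Log2 fold changes come from one limma fit over all 12 arrays and 13575 probe sets and are given ± SE, with p-values adjusted over all probe sets tested by the Benjamini-Hochberg method and a threshold of 0.05. Median signals of the 12 arrays were 48.4 to 57.2. The 8 skeletal muscle markers chosen (Ckm, Acta1, Myh4, Myh1, Tnnt3, Mb, Pygm and Mylpf) were present, with summed signals between 102331 and 131905 per array. The sums were 113047 to 125810 in combination, 102331 to 129010 in GW, 126031 to 131905 in exercise and 106371 to 107189 in vehicle. Every exercise and every combination sum thus exceeded every vehicle sum. GW array 1 correlated less with its own group than with the other groups (mean r = 0.9496 against 0.9508), and so did GW array 2 (0.9571 against 0.9631).

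Fat cell signal set 2 arrays apart. Adipoq was at 270, 1049 and 1471 in combination arrays 1, 2 and 3. The GW arrays had 248, 346 and 363, the exercise arrays 283, 338 and 334, and the vehicle arrays 331, 210 and 365. Combination arrays 2 and 3 thus stood above every other array, while combination array 1 lay within the range of the rest. The summed signal of the 11 fat cell markers with a probe set, of 14 chosen, ranged from 7675 to 17928 in combination, from 6528 to 9787 in GW, from 6930 to 8436 in exercise and from 7011 to 7739 in vehicle. Car3 alone was the largest part of this sum on every array. It was at 5326 to 8640 in combination, 3907 to 6737 in GW, 4199 to 5855 in exercise and 4606 to 5563 in vehicle. The sums therefore largely follow Car3, and the part of its signal that came from fat cells was not tested. On all 12 fat cell probe sets tested, combination arrays 2 and 3 were the 2 highest of the 12 arrays, as on 2.96% of all probe sets tested. On all 16 fat cell probe sets, those below the filter included, they were so on 13, and the exceptions were those of Lep, Pparg and Acvr1c, all below the filter. Of the 11 markers, Acvr1c did not exceed the background level of 23.5 on any combination array, Pparg and Acvr1c did not on any GW array, and Lep and Cidea did not on any exercise or vehicle array.

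No member passed the threshold in any comparison. By limma, 0 of the 7 probe sets were called in GW minus vehicle, where 0.0958% of all probe sets tested were, in exercise minus vehicle (0.0147%) and in combination minus vehicle (0.155%). The count was also 0 in combination minus exercise (0.162%), in combination minus GW (0%) and in the interaction (0%), which sets the effect of the drug with training against its effect without. It was 0 in the drug main effect, GW and combination minus vehicle and exercise (0.317%), and in the training main effect, exercise and combination minus vehicle and GW (0.0147%). The comparisons share arrays, so their values for a gene are not independent.

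Before adjustment, some of the 7 had a p under 0.05. There was 1 in GW minus vehicle, where 6.42% of all probe sets tested had such a p, and 1 in exercise minus vehicle (10.4%). There were 4 in combination minus vehicle (9.98%), 6 in combination minus exercise (9.18%) and 2 in combination minus GW (5.75%). Those in combination minus exercise were 4 higher, the probe sets of Dgat2 and Gpam, and 2 lower, those of Lpin1. The drug main effect had 5 (8.37%), 4 higher and 1 lower, the training main effect 1 (9.09%) and the interaction 0 (6.79%). The median log2 fold change of the 7 was 0.53 in combination minus vehicle, 0.21 in GW minus vehicle and 0.23 in exercise minus vehicle, where the medians over all probe sets tested were -0.0027, -0.00063 and 0.0079.

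**Figure D1:**
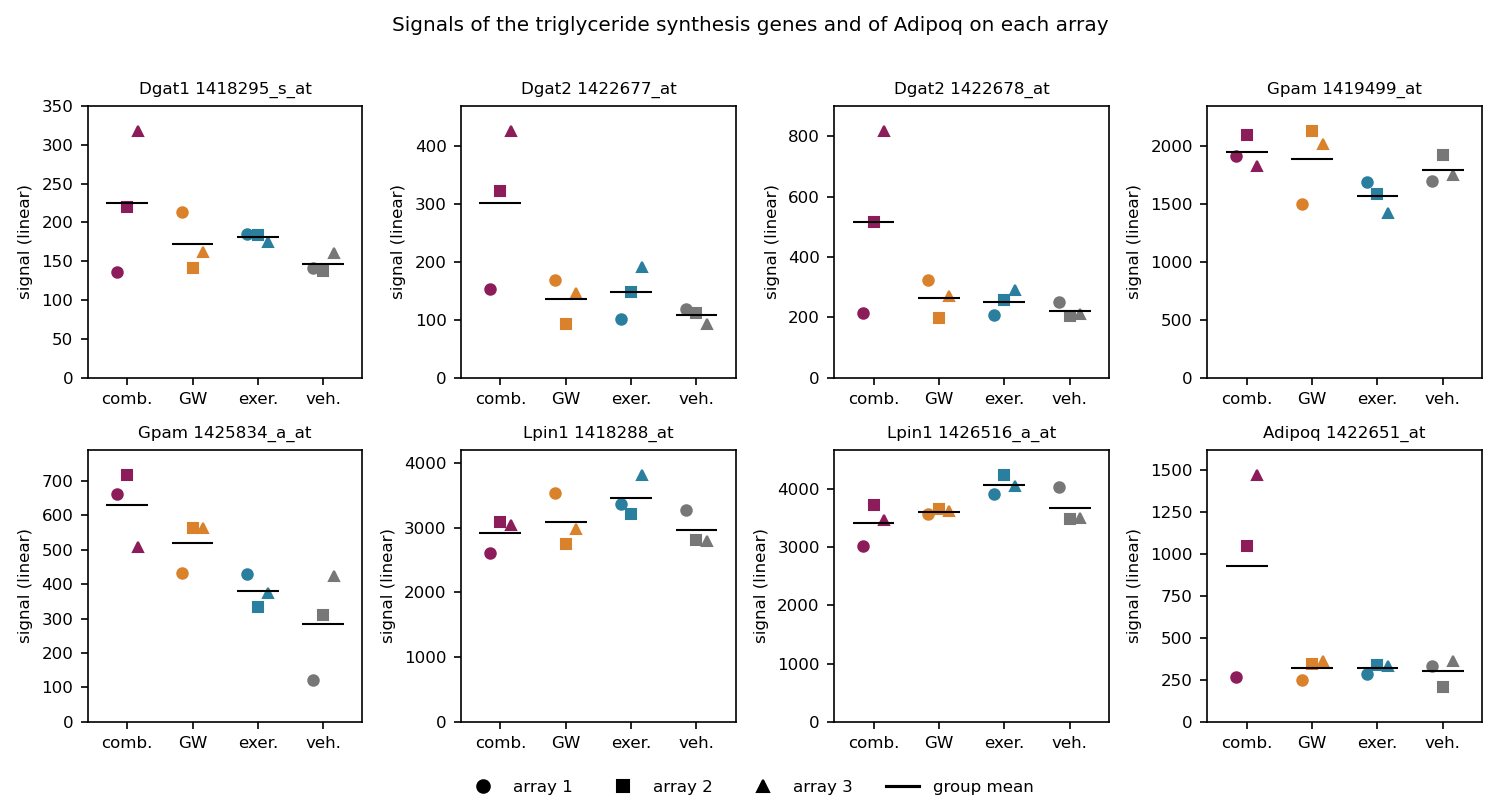
Signal on each array (linear scale from 0) for the 7 probe sets of the triglyceride synthesis genes and for Adipoq, in the combination (comb.), GW, exercise (exer.) and vehicle (veh.) groups. Symbols mark arrays 1 to 3 of a group and bars the group means; Dgat1, Dgat2 and Adipoq are highest on combination arrays 3 and 2, and Gpam 1425834_a_at is higher on all 6 drug-treated arrays than on the 6 others.

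Gpam, the enzyme of the first step, was measured by 2 probe sets that behaved differently. Probe set 1425834_a_at had signals of 662, 717 and 508 in the combination arrays and 432, 561 and 562 in the GW arrays. It had 428, 334 and 375 under exercise and 121, 311 and 424 under vehicle. All 6 drug-treated arrays therefore lay above all 6 others, narrowly, with GW array 1 at 432 and exercise array 1 at 428 next to each other. Among all probe sets tested, 0.398% separated the arrays in this way with the drug-treated ones higher.

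The drug main effect on this probe set was a log2 fold change of 0.88 ± 0.23, or 1.84-fold (limma adjusted p = 0.178). In sedentary mice GW averaged 518 ± 74.7 and vehicle 285 ± 153 (SD, n = 3 arrays each), a log2 fold change of 1.03 ± 0.32 (limma adjusted p = 0.562). In trained mice the combination averaged 629 ± 108 and exercise 379 ± 47.4, with 0.72 ± 0.32 (limma adjusted p = 0.518). The groups did not overlap in either, where 5.54% and 7.58% of all probe sets tested were separated in that direction. The interaction was -0.31 ± 0.45 (limma adjusted p = 0.911), so no difference between the drug effects was detectable, within a 95% confidence interval of -1.27 to 0.65. The combination against vehicle gave the largest value, 1.31 ± 0.32, or 2.48-fold (limma adjusted p = 0.148), with groups that did not overlap (7.94% of all probe sets tested).

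Vehicle array 1, at 121, moved these values. Without it the log2 fold change was 0.50 in GW minus vehicle, 0.78 in combination minus vehicle and 0.61 in the drug main effect. Exercise minus vehicle was then 0.05 and the training main effect 0.16. Without vehicle array 3, at 424, the drug main effect (1.07, limma adjusted p = 0.0334) and combination minus vehicle (1.69, limma adjusted p = 0.0332) passed the threshold. Over all settings run, the adjusted p lay between 0.0334 and 0.551 for the drug main effect and between 0.0332 and 0.639 for combination minus vehicle. Combination array 3, which had the highest Adipoq signal, had the lowest of the 3 combination signals here. Combination array 2, second on Adipoq, had the highest signal of all arrays. The part of fat cell RNA in these signals was not tested. With Adipoq in the model the drug main effect was 0.93, and without combination arrays 2 and 3 it was 0.92.

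The other Gpam probe set, 1419499_at, differed little between groups. Its signals were 1914, 2096 and 1834 in the combination arrays, 1506, 2137 and 2019 in the GW arrays, 1694, 1587 and 1425 under exercise and 1701, 1926 and 1752 under vehicle. The exercise arrays lay below the vehicle arrays (log2 fold change -0.19 ± 0.12, limma adjusted p = 0.585), a separation found for 8.56% of probe sets. The combination arrays lay above the exercise arrays (0.31 ± 0.12, limma adjusted p = 0.458), as for 7.58% of probe sets. GW minus vehicle was 0.06 ± 0.12, with a 95% confidence interval of 0.874-fold to 1.24-fold. That interval excludes the 2.05-fold estimate of the first probe set. GW array 1 was low on this probe set, and without it GW minus vehicle was 0.21 and combination minus GW -0.09, against 0.06 with it.

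Lpin1, whose product removes the phosphate, was measured by 2 probe sets with like patterns and small differences. Probe set 1426516_a_at had signals of 3020, 3724 and 3471 in the combination arrays, 3565, 3649 and 3614 in the GW arrays, 3914, 4243 and 4052 under exercise and 4023, 3485 and 3498 under vehicle. Probe set 1418288_at had 2611, 3085 and 3046 in the combination arrays, 3528, 2752 and 2976 in the GW arrays, 3356, 3216 and 3817 under exercise and 3267, 2808 and 2800 under vehicle. In both, all combination arrays lay below all exercise arrays, a separation found for 8.21% of probe sets, and the GW and vehicle arrays overlapped.

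The combination averaged 3405 ± 356 and exercise 4069 ± 165 on 1426516_a_at (SD, n = 3 each), a log2 fold change of -0.26 ± 0.08, or 0.834-fold (limma adjusted p = 0.36). On 1418288_at the same comparison gave -0.25 ± 0.11 (limma adjusted p = 0.499). In sedentary mice the drug gave -0.02 ± 0.08 and 0.06 ± 0.11, with 95% confidence intervals of 0.87-fold to 1.12-fold and 0.889-fold to 1.22-fold. The interaction was -0.24 ± 0.12 and -0.31 ± 0.15 (limma adjusted p = 0.73 and 0.727), so the drug effects in trained and sedentary mice were not shown to differ. Exercise minus vehicle was 0.15 ± 0.08 and 0.23 ± 0.11 (limma adjusted p = 0.549 and 0.476). With Adipoq in the model, combination minus exercise became -0.39 and -0.34, further from 0.

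**Figure D2:**
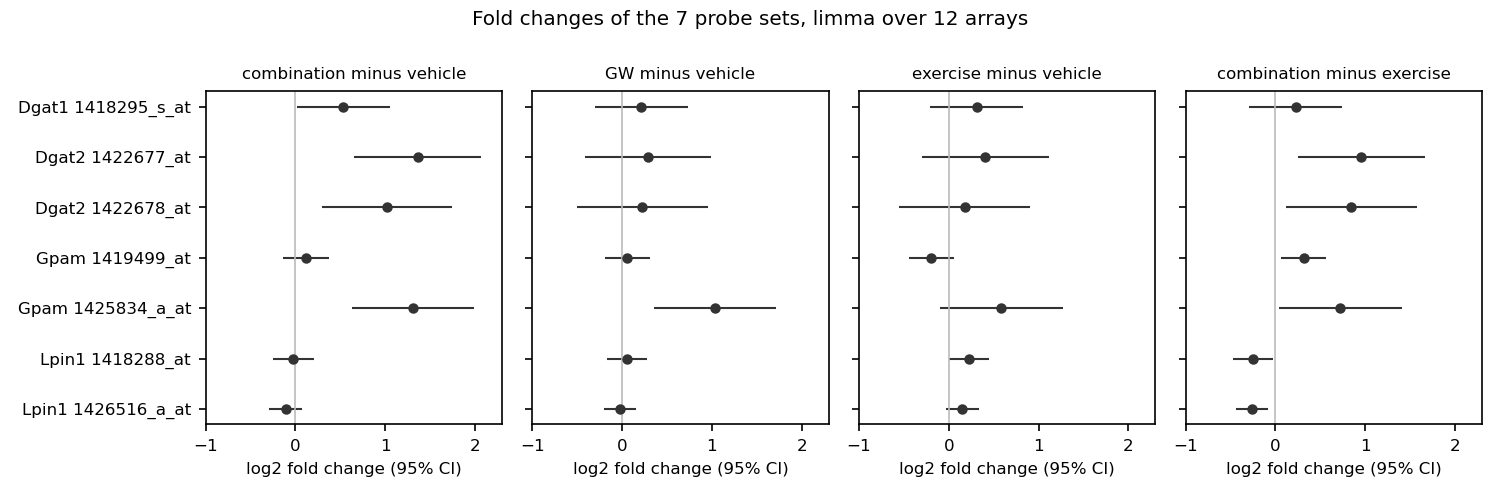
Log2 fold changes with 95% confidence intervals of the 7 probe sets in 4 comparisons, from limma over 12 arrays. Dgat2 and Gpam 1425834_a_at have the largest values in combination minus vehicle and in GW minus vehicle, the Lpin1 probe sets lie at -0.26 and -0.25 in combination minus exercise, and none passed the adjusted threshold.

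Dgat2, without which newborn mice hold very little triglyceride, had its highest signals on combination arrays 2 and 3 in both of its probe sets. Probe set 1422677_at was at 154, 323 and 428 in the combination arrays, 168, 92.4 and 146 in the GW arrays, 103, 148 and 192 under exercise and 120, 111 and 93.8 under vehicle. Probe set 1422678_at was at 216, 518 and 820 in the combination arrays, 324, 200 and 270 in the GW arrays, 210, 258 and 291 under exercise and 252, 205 and 211 under vehicle. Combination array 1 lay among the GW, exercise and vehicle arrays on both. The groups overlapped in every comparison except combination minus vehicle on 1422677_at, a separation found for 7.94% of probe sets.

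The combination averaged 301 ± 138 and vehicle 108 ± 13.2 on 1422677_at (SD, n = 3 each), a log2 fold change of 1.36 ± 0.33, or 2.57-fold (limma adjusted p = 0.147). On 1422678_at the averages were 518 ± 302 and 223 ± 25.6, a log2 fold change of 1.02 ± 0.34, or 2.03-fold (limma adjusted p = 0.331). Against exercise the combination gave 0.95 ± 0.33 and 0.85 ± 0.34 (limma adjusted p = 0.402 and 0.481), and against GW 1.07 ± 0.33 and 0.80 ± 0.34 (limma adjusted p = 0.716 and 0.853). In sedentary mice the drug gave 0.29 ± 0.33 and 0.23 ± 0.34, and training without the drug 0.41 ± 0.33 and 0.18 ± 0.34. None of these 4 values passed (limma adjusted p between 0.701 and 0.933). With an array left out, GW minus vehicle ranged from 0.11 (without GW array 1) to 0.54 (without GW array 2) on 1422677_at and from 0.07 to 0.42, for the same arrays, on 1422678_at. Exercise minus vehicle ranged from 0.19 (without exercise array 3) to 0.65 (without exercise array 1) and from 0.07 to 0.30, again for the same arrays. The interaction was 0.67 ± 0.47 and 0.62 ± 0.48 (limma adjusted p = 0.796 and 0.808). The drug main effect was 0.62 ± 0.23 and 0.54 ± 0.24 (limma adjusted p = 0.481 and 0.58). The training main effect was 0.74 ± 0.23 and 0.49 ± 0.24 (limma adjusted p = 0.361 and 0.569).

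These values turned on which combination arrays were in the fit. Without combination array 1, combination minus vehicle was 1.79 on 1422677_at (limma adjusted p = 0.00813) and 1.55 on 1422678_at (0.00457). Both probe sets then also passed against exercise (limma adjusted p = 0.0465 and 0.0115) and against GW (0.0471 and 0.0308), and 1422678_at passed for the drug main effect (0.80, 0.0291). Without combination arrays 2 and 3, which left 1 combination array, combination minus vehicle was 0.51 and -0.04. With Adipoq in the model it was 0.73 (limma adjusted p = 0.681) and 0.17 (0.931). With array weights 1422677_at passed against vehicle (1.37, limma adjusted p = 0.042), where 94 of all 13575 probe sets tested did. Over all settings run, the adjusted p of combination minus vehicle lay between 0.00813 and 0.912 for 1422677_at and between 0.00457 and 0.995 for 1422678_at.

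Dgat1, the other enzyme of the last step, is expressed in many tissues and had a like pattern with smaller differences. Its probe set, 1418295_s_at, carries the suffix of sets that can match several transcripts. It was at 136, 220 and 318 in the combination arrays, 213, 141 and 161 in the GW arrays, 185, 183 and 175 under exercise and 142, 138 and 160 under vehicle. Combination array 3 was the highest and combination array 1 the lowest of all 12 arrays. Every exercise signal exceeded every vehicle signal, a separation found for 8.83% of probe sets. Exercise averaged 181 ± 5.28 and vehicle 147 ± 11.9 (SD, n = 3 each), a log2 fold change of 0.31 ± 0.24 (limma adjusted p = 0.69). Combination minus vehicle was 0.53 ± 0.24, or 1.45-fold (limma adjusted p = 0.493), and GW minus vehicle 0.21 ± 0.24 (limma adjusted p = 0.913). Combination minus vehicle was 0.24 without combination array 3 and 0.85 without combination array 1, and GW minus vehicle was 0.05 without GW array 1 and 0.34 without GW array 2. With Adipoq in the model, combination minus vehicle was 0.04 and combination minus exercise -0.23, against 0.23 without it.

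**Figure D3:**
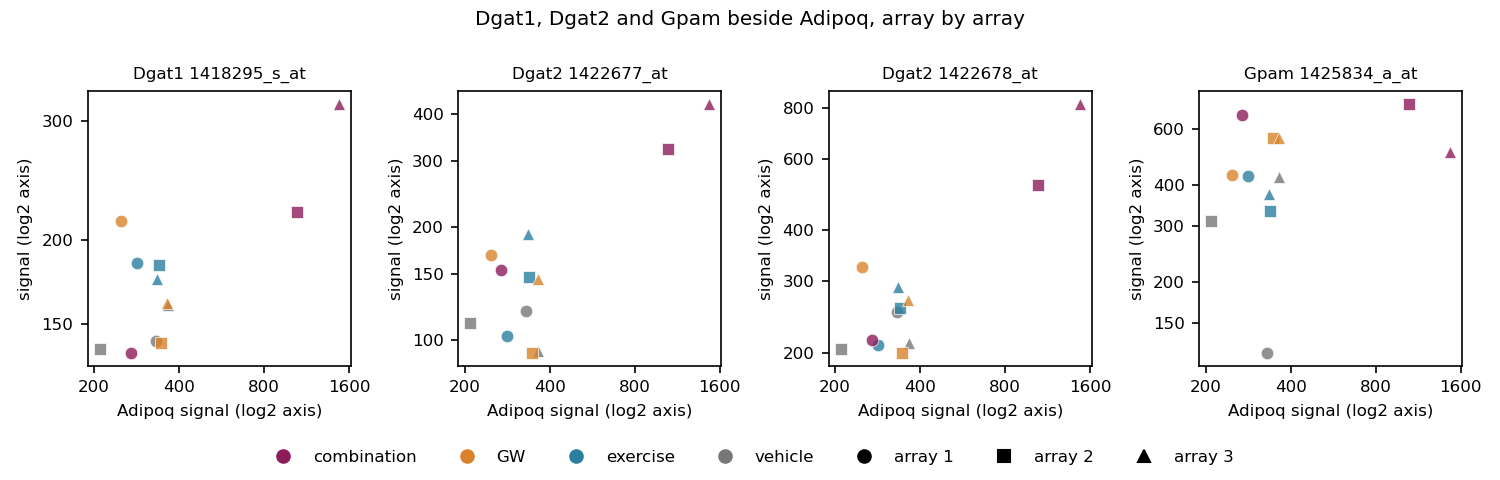
Signals of Dgat1, Dgat2 (2 probe sets) and Gpam 1425834_a_at against the Adipoq signal on the same array, both on log2 axes, for 12 arrays coloured by group with symbols for array number. Combination arrays 2 and 3 stand apart at Adipoq signals of 1049 and 1471, and with them the Dgat1 and Dgat2 signals, while the other 10 arrays lie between 210 and 365.

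All 3 probe sets of Dgat1 and Dgat2 had combination arrays 2 and 3 as their 2 highest, where 2.96% of all probe sets tested did. None of the 4 probe sets of Gpam and Lpin1 did. Since Adipoq split the arrays into 2 high ones and 10 others, no correlation over all 12 is given. Over the other 10 arrays the Pearson correlation of log2 signals with Adipoq lay between -0.09 and 0.39 for the 7 probe sets (7 relations, permutation p between 0.263 and 0.997, adjusted p = 0.997 for each). Spearman's rho lay between -0.35 and 0.31 (permutation p between 0.329 and 1, adjusted p between 0.957 and 1). Without GW array 1 and vehicle array 2, the farthest from the median of Adipoq, r lay between -0.16 and 0.35 over 8 arrays. Taken as deviations from the group means in the GW, exercise and vehicle arrays, r lay between -0.27 and 0.42. Within the narrow range of Adipoq outside combination arrays 2 and 3, no relation of the members to it was therefore detectable. The part of fat cell RNA in the Dgat1 and Dgat2 signals of those 2 arrays was not tested, and the values with Adipoq in the model are given as a description, since these 2 arrays are the only ones far from the rest on Adipoq.

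**Figure D4:**
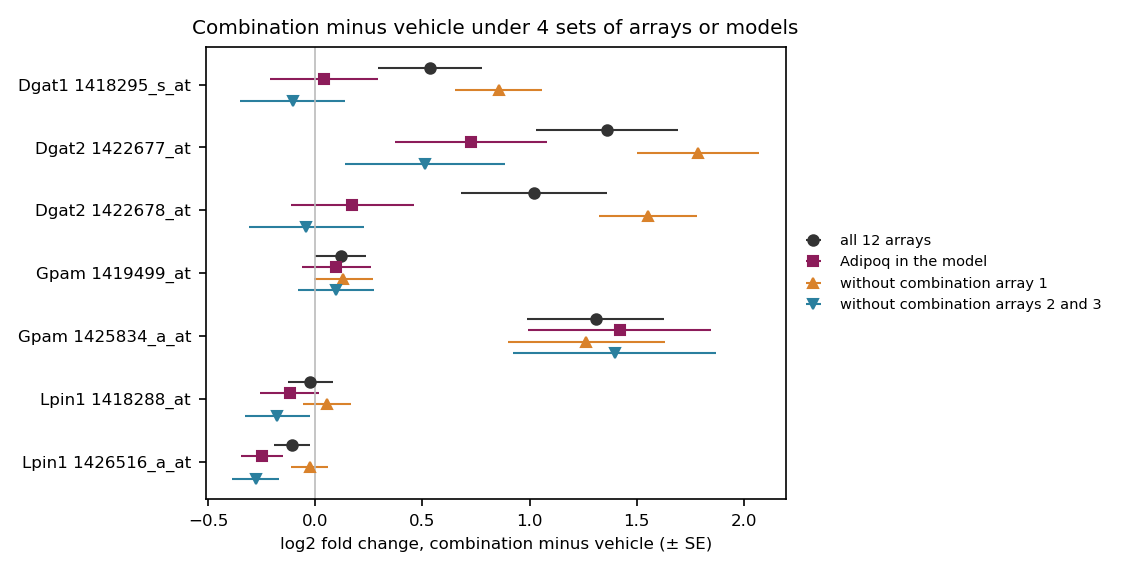
Log2 fold change (± SE) of the 7 probe sets in combination minus vehicle with all 12 arrays, with Adipoq in the model, without combination array 1, and without combination arrays 2 and 3. The values of Dgat1 and Dgat2 1422678_at reach from below 0 to 0.85 and 1.55, while those of Gpam 1425834_a_at stay between 1.26 and 1.42.

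The genes whose patterns over the 12 arrays were most like a member's were sought among 12510 or 12511 probe sets of other genes with 1 symbol. For Dgat2 (1422678_at) these were Tkt (Pearson r = 0.96), a transketolase of the pentose phosphate pathway, Cox6a1 (0.96), a subunit of cytochrome c oxidase, Hsd17b12 (0.95), a reductase of fatty acid elongation, Slc1a5 (0.94), a glutamine transporter, and Retn (0.93), the resistin gene and one of the fat cell markers. Without combination arrays 2 and 3 the same correlations were 0.68, 0.89, 0.58, 0.43 and 0.51. For Dgat1 they were the fatty acid translocase gene Cd36 (0.92), Dgat2 itself (0.90), Cox6a1 (0.90), Plbd1 (0.89) and the lipoprotein lipase gene Lpl (0.87), and 0.83, 0.66, 0.63, 0.81 and 0.77 over the 10 other arrays. Cd36 and Lpl both serve fatty acid uptake.

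For Gpam (1419499_at) the most like were Pla2g7 (0.93), the gene of a secreted phospholipase, Ddx6 (0.92), an RNA helicase, Ivd (0.89), an enzyme of leucine breakdown, Snrpb (0.89), a splicing protein, and C1qtnf4 (0.89). For Lpin1 (1426516_a_at) they were Tmsb10 (0.91), an actin-binding peptide, Rrbp1 (0.91), a protein of the endoplasmic reticulum, the intermediate filament gene Vim (0.88), and the leukocyte genes Cd52 (0.88) and Lyz2 (0.88). These correlations were between 0.89 and 0.96 without combination arrays 2 and 3. They are descriptions over 12 arrays, and the 99th percentile of all correlations lay between 0.70 and 0.75 for the 4 members.

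The rest of the pathway was followed in 23 genes: the other acyltransferases, lipins and lipid phosphatases, the suppliers of glycerol 3-phosphate and acyl-CoA, and 2 transcription factors of fat synthesis. Of these, 17 had a probe set and 14 a tested one, with 22 probe sets in all. By limma 0 of the 22 passed in each of the 8 comparisons, where 0% to 0.317% of all probe sets tested did. At an unadjusted p under 0.05 there were between 0 and 4. The drug main effect had 3 higher and 1 lower (8.37% of all probe sets tested), and exercise minus vehicle 0 (10.4%). GW minus vehicle had 1 higher and 1 lower (6.42%), and combination minus vehicle 2 higher (9.98%). Combination minus exercise (9.18%) and the interaction (6.79%) had 1 higher each. Combination minus GW (5.75%) and the training main effect (9.09%) had 1 lower each. In GW minus vehicle 16 of 22 were positive, with a median log2 fold change of 0.17. In combination minus vehicle 14 were positive, with a median of 0.19, and in exercise minus vehicle 17 were, with a median of 0.11. Over all probe sets tested, 49.8%, 49.6% and 51.2% were positive in these 3 comparisons.

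Agpat3, an acyltransferase of the AGPAT family, had the smallest p of the pathway for the drug. Its signals were 383, 389 and 342 in the combination arrays, 515, 336 and 348 in the GW arrays, 330, 261 and 361 under exercise and 307, 249 and 219 under vehicle. The GW and the combination arrays lay above the vehicle arrays, separations found for 5.54% and 7.94% of all probe sets tested. The log2 fold change was 0.62 ± 0.18 in GW minus vehicle (limma adjusted p = 0.512), 0.54 ± 0.18 in combination minus vehicle (limma adjusted p = 0.336) and 0.43 ± 0.13 for the drug main effect (limma adjusted p = 0.307). In exercise minus vehicle it was 0.30 and in the interaction -0.38, neither past the threshold. Without GW array 1, at 515, GW minus vehicle was 0.42 and the interaction -0.18.

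Srebf1, the gene of a transcription factor that drives genes of fatty acid and triglyceride synthesis, had the smallest p in combination minus exercise. It was at 1290, 1081 and 1051 in the combination arrays, 508, 1126 and 1162 in the GW arrays, 787, 591 and 655 under exercise and 859, 923 and 890 under vehicle. The combination arrays lay above and the exercise arrays below the vehicle arrays, separations found for 7.94% and 8.56% of all probe sets tested. The log2 fold change was 0.76 ± 0.23 in combination minus exercise (limma adjusted p = 0.326), -0.40 ± 0.23 in exercise minus vehicle (limma adjusted p = 0.559) and 0.38 in combination minus GW. The interaction was 0.78 ± 0.33 (limma adjusted p = 0.727) and the drug main effect 0.36 ± 0.16 (limma adjusted p = 0.58). GW array 1, at 508, moved the values of the comparisons that use the GW arrays. Without it combination minus GW was -0.01, the interaction 0.39 and the drug main effect 0.56. Combination minus exercise (limma adjusted p = 0.00928) and the drug main effect (limma adjusted p = 0.00764) then passed the threshold. Combination minus exercise does not use that array, so its log2 fold change stayed at 0.76 and only its p-value changed. That p-value rests on a spread shared by all 4 groups. No other pathway probe set passed in any comparison with an array left out. Mlxipl, the gene of the carbohydrate-responsive factor ChREBP, had -0.22 ± 0.10 in GW minus vehicle (limma adjusted p = 0.772) and -0.17 for the drug main effect.

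Among the suppliers, Acsl4, a synthetase that activates arachidonic acid, had 3 probe sets tested. In 1451828_a_at the log2 fold change was 0.80 ± 0.32 in combination minus vehicle (limma adjusted p = 0.455), 0.64 in GW minus vehicle and 0.53 for the drug main effect. In 1433531_at it was -0.54 ± 0.18 in combination minus GW (limma adjusted p = 0.728) and -0.38 for the training main effect. In combination minus vehicle 1433531_at had -0.24 ± 0.18 and the third, 1418911_s_at, 0.03 ± 0.31. Gpd1, which makes glycerol 3-phosphate, had 0.34 ± 0.16 in combination minus vehicle and 0.32 ± 0.16 in exercise minus vehicle on 1416204_at, and without vehicle array 1 these were 0.16 and 0.14. Its other tested probe sets gave 0.34 ± 0.24 and 0.01 ± 0.24 (1439396_x_at) and -0.03 ± 0.11 and 0.09 ± 0.11 (1448249_at) in the same 2 comparisons. Gpat4, which does at the endoplasmic reticulum what Gpam does at the mitochondrion, had 0.37 ± 0.22 in combination minus GW and 0.34 ± 0.16 for the training main effect. Agpat5 had 0.79 in combination minus exercise. The phosphatase gene Plpp1 had -0.21 ± 0.13 on 1422620_s_at and 0.03 ± 0.20 on 1422619_at in that comparison. The acyl-CoA synthetase gene Acsl5 had 0.42 for the training main effect, and Acsl6 had 0.23 in the interaction. With 1 array left out, some of these values moved by over 1.5 times: Acsl4 1451828_a_at to 0.40 in GW minus vehicle (without vehicle array 1), Gpat4 to 0.20 (without GW array 3) and 0.64 (without GW array 1) in combination minus GW, Agpat5 to 0.45 (without exercise array 3), Acsl5 to 0.21 (without GW array 3) and Acsl6 to 0.14 (without GW array 1). None of these passed with all 12 arrays or with 1 left out, and combination arrays 2 and 3 were the 2 highest on 0 of the 22 probe sets.

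**Figure D5:**
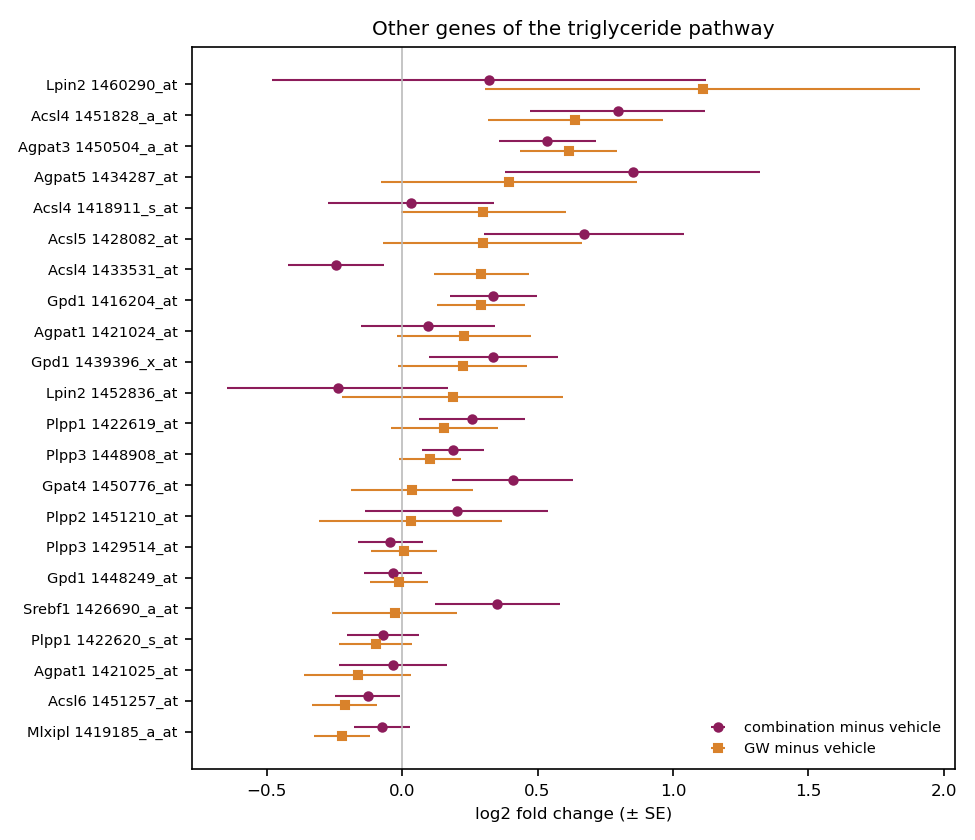
Log2 fold changes (± SE) of the 22 tested probe sets of other triglyceride pathway genes in combination minus vehicle (circles) and GW minus vehicle (squares), ordered by GW minus vehicle. Agpat3 lies at 0.54 and 0.62, and none of the 22 passed the adjusted threshold in either comparison.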

How the data were processed

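The deposited values are signal intensities per probe set that the authors made with MAS5, per the submitters' processing notes, which name no version here. Groups came from the sample titles and gene symbols from the array annotation. With 2% of values trimmed at each end, array means were 200.0, and no value was 0 or below.

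Signals were log2-transformed with no pseudocount. Of 22626 probe sets other than controls, the upper 60% by mean were tested (13575, mean signal over 28.4). In R 4.3.3, limma 3.58.1 was fitted to 4 groups with an intensity trend, two-sided, with Benjamini-Hochberg adjustment over all probe sets tested. The number of arrays limits the precision. The procedure was tested on simulated data. These were drawn independently for each probe set and array, so that test does not cover outlying arrays or genes that vary together. The background level was the 95th percentile of 27 bacterial control probe sets. Permutation tests were two-sided with 100000 resamples. The relation to Adipoq was planned over 12 arrays and is given over 10, since the arrays fell into separate clusters.

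Named were every member probe set, the 3 pathway probe sets with the smallest p per comparison where none passed, and the 5 genes most like each member. Alternatives changed the normalization, filter, variance model, covariates and arrays used. Members and lists were chosen with earlier results of these data known.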

Additional observations from a re-analysis of the deposited data

How the results depend on the processing

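The 56 log2 fold changes of the members were recomputed under up to 25 other settings: other normalizations (quantile, cyclic loess), a pseudocount, other filters, other variance models, array weights, fits restricted to the 2 groups of a comparison, Adipoq or a score of 7 fat cell markers as a term, a replicate block, each array left out, and, chosen after seeing the data, combination arrays 2 and 3 left out. For the other pathway genes each array was left out in turn, also chosen after seeing the data, and Srebf1 alone passed, without GW array 1. Of the 56, 35 kept their direction throughout and 21 reversed at least once, none of these with an adjusted p under 0.05. Of 1379 recomputed values, 1321 kept direction and side of the threshold, 10 newly passed and 48 reversed. The causes were not tested. Every member signal, the lowest 92.4, lay above the background level of 23.5.

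The count of members past the threshold in combination minus vehicle was 1 with array weights (Dgat2 1422677_at) and 0 to 2 with an array left out. With an array left out it was also 0 to 2 in combination minus exercise and in combination minus GW, and 0 to 1 for the drug main effect. Of all 13575 probe sets tested, 94 passed in combination minus vehicle with array weights, against 21 in the main fit. With an array left out, 9 to 52 passed in combination minus vehicle and 8 to 83 in combination minus exercise. In combination minus GW 0 to 35 did, and 20 to 74 for the drug main effect. The highest of each came without combination array 1. With array number as a replicate block the count of members was 0 in every comparison, where 0 to 35 of all probe sets tested passed. Deviations from the group means had r from -0.048 to 0.100 over 18 pairs of same-numbered arrays of different groups. Over 36 pairs of different numbers r was -0.078 to 0.061. The same-numbered vehicle and GW arrays had the highest values, 0.076, 0.100 and 0.063. Whether arrays of a number share more than the number was not tested. The correlation with Adipoq passed for 0 of the 7 under each alternative that gave a test, and as deviations from group means it had no test.

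Without combination arrays 2 and 3, Dgat1 reversed to -0.11 in combination minus vehicle, -0.41 in combination minus exercise, -0.32 in combination minus GW, -0.63 in the interaction, -0.10 for the drug main effect and -0.0041 for the training main effect. Dgat2 1422678_at reversed to -0.042, -0.22, -0.27 and -0.44 in the first 4 of these and to -0.046 for the training main effect, and Dgat2 1422677_at to -0.18 in the interaction. For the training main effect Lpin1 reversed to -0.0030 (1418288_at) and -0.052 (1426516_a_at).

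With Adipoq in the model, Dgat1 reversed to -0.23 in combination minus exercise, -0.13 in combination minus GW, -0.40 in the interaction and -0.026 for the drug main effect, Dgat2 1422678_at to -0.093 in the interaction and Lpin1 1426516_a_at to -0.038 for the training main effect. With the score in the model, Dgat1 reversed to -0.028 in combination minus vehicle, -0.26 in combination minus exercise, -0.14 in combination minus GW, -0.37 in the interaction and -0.076 for the drug main effect. Dgat2 1422678_at reversed to -0.024 in combination minus exercise, -0.027 in combination minus GW and -0.071 in the interaction, and Lpin1 1426516_a_at to -0.045 for the training main effect. Array weights gave 0.016 for Lpin1 1426516_a_at in GW minus vehicle and 0.022 for Lpin1 1418288_at in combination minus vehicle, and quantile normalization -0.00062 for Lpin1 1426516_a_at for the training main effect.

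With an array left out, values that reversed ranged from -0.068 to 0.55 for Dgat1 in combination minus exercise and from -0.28 to 0.33 in the interaction. Gpam 1419499_at ranged from -0.038 to 0.21 in GW minus vehicle and from -0.095 to 0.16 in combination minus GW, and Gpam 1425834_a_at from -0.69 to 0.22 in the interaction. Lpin1 1418288_at ranged from -0.044 to 0.14 in GW minus vehicle, from -0.16 to 0.022 in combination minus GW and from -0.065 to 0.055 in combination minus vehicle. Lpin1 1426516_a_at ranged from -0.056 to 0.048 in GW minus vehicle and from -0.0023 to 0.073 for the training main effect.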

Other observations

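Of the fat cell genes outside the triglyceride pathway, some were highest on combination arrays 2 and 3 and some were not. Cidea, a lipid droplet protein of brown and white fat, was at 1.36, 96.1 and 220 in the combination arrays, at 4.64, 28.9 and 5.05 in the GW arrays, at 3.92, 14.4 and 2.40 under exercise and at 1.44, 1.02 and 3.99 under vehicle. Lipe, the hormone-sensitive lipase gene, was at 124, 317 and 502 in the combination arrays, at 132, 166 and 132 in the GW arrays, at 121, 114 and 127 under exercise and at 115, 83.1 and 113 under vehicle. Lep, the leptin gene, was at 16.5, 51.1 and 6.30 in the combination arrays, at 25.1, 12.2 and 20.6 in the GW arrays, at 12.6, 4.36 and 20.6 under exercise and at 10.3, 22.6 and 19.4 under vehicle. Pparg, a nuclear receptor of fat cell formation, was at 56.6, 38.2 and 149 in the combination arrays, at 6.02, 8.60 and 5.20 in the GW arrays, at 6.90, 37.7 and 7.10 under exercise and at 36.1, 39.5 and 19.6 under vehicle. Cidea, Lep and Pparg lay below the filter on low signal, as did Acvr1c. These genes were chosen after their values were seen.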
